A study of Arabidopsis thaliana with 39 samples.

Results

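The 10 genes described here move the nitrogen of ammonium, glutamine, glutamate and asparagine through the Arabidopsis rosette. They were chosen by function, with earlier results of these data known, and taken by gene ID from the 33110 genes of the count table. 4 encode cytosolic glutamine synthetase (GLN1;1 AT5G37600, GLN1;2 AT1G66200, GLN1;3 AT3G17820 and GLN1;4 AT5G16570), 3 encode mitochondrial glutamate dehydrogenase (GDH1 AT5G18170, GDH2 AT5G07440 and GDH3 AT3G03910), 2 encode asparagine synthetase (ASN1 AT3G47340 and ASN2 AT5G65010), and LHT1 (AT5G40780) encodes an amino acid importer of the plasma membrane. Glutamine synthetase binds ammonium to glutamate, and the cytosolic enzyme recaptures ammonium set free when protein is broken down. Glutamate dehydrogenase mainly works in the reverse sense, splitting glutamate into ammonium and a carbon skeleton. Asparagine synthetase passes the amide nitrogen of glutamine to aspartate, and both amides travel in the phloem from ageing leaves to growing organs.

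The rosettes came from plants of the Col-0 accession, from slim1-cr, a CRISPR line that has lost the part of SLIM1 coding for its DNA binding domains, from the SLIM1 overexpressors 35S::SLIM1 #17 and #25, and from the empty vector line EV. SLIM1 is the EIN3-like transcription factor of the sulfur deficiency response, and the 35S promoter of these lines drives it in most cell types. Rosettes of Col-0, slim1-cr, #17 and #25 were taken at 30, 37 and 44 days after sowing (DAS) and those of EV at 30 DAS only, with 3 libraries in each of the 13 groups. All plants were grown in long days on soil with no further treatment, stalks and flowers were cut off, the overexpressors were homozygous plants of the T2 generation, and the plates on which 35S::SLIM1 seedlings started held hygromycin. slim1-cr is a single line and the overexpressors are 2 independent ones. A rosette is a mixture of leaves of several ages, so that fewer cells of a type and less RNA per cell cannot be told apart in any value below.

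Counts of the 39 libraries summed to between 38.4 and 46.2 M (median 45.5 M), and levels are given as CPM, the count of a gene over the TMM-scaled library total in M. SLIM1 itself lay at 18.1 to 19.8 CPM in Col-0 at 30 DAS, at 0.669 to 2.59 CPM over the 9 slim1-cr libraries and at 82.3 to 356 CPM over the 18 overexpressor libraries, as the labels say. The summed level of 4 mesophyll markers (RBCS1A, LHCB1.3, CA1 and RCA) was 25865 to 34284 CPM in Col-0 at 44 DAS, against 11175 to 16211 CPM in #17 and 7879.6 to 10064 CPM in #25. The summed level of 7 phloem and vascular markers was 996 to 1319 CPM in Col-0 at that age and 1142 to 1190.4 CPM in the overexpressors, where 3 of the 7 were lower than in Col-0 in each line and none higher. In Col-0 this sum had been 702 to 802 CPM at 37 DAS, and 4 of the 7 markers rose over the following week. Flower organ markers summed to at most 50.2 CPM in any library. The 5 root markers summed to 21.8 to 108 CPM, nearly all of it from PYK10 and SCR, which were found in every library, while RHD6, WOX5 and CASP1 stayed below 1 CPM. Of the 4 seed markers CRC was at 0 in all 39 libraries and the highest, CRA1, reached 0.400 CPM. A part of tissue make-up, or of RNA per cell, in these marker levels and in the results below was not tested.

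The members lie on chromosomes 1, 3 and 5, by the RefSeq copy of the authors' TAIR10 build (TAIR10.1). GLN1;1 spans 14933286 to 14935885 and GLN1;4 spans 5421589 to 5424749 on the minus strand of chromosome 5. On its plus strand lie GDH1 (6006035 to 6008726), GDH2 (2355759 to 2358241), ASN2 (25969035 to 25972575) and LHT1 (16323567 to 16327382). Chromosome 3 holds GLN1;3 (6097201 to 6099595) and GDH3 (1006780 to 1009018) on the plus strand and ASN1 (17437840 to 17441431) on the minus strand, and GLN1;2 lies on the minus strand of chromosome 1 (24655115 to 24657703). Within the families the coding sequences share 70.95% (ASN1 and ASN2) to 87.49% (GLN1;1 and GLN1;2) of aligned bases. The longest run of bases common to transcripts of any pair was 59, between GDH1 and GDH3, which is shorter than the reads that the paper describes. GDH3, the lowest member, also overlaps a more abundant gene on the other strand (AT3G03920) by 24 bases, and GDH1 overlaps AT5G18180 by 166 bases, which had at most 29 counts in any library.

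The 300 bases upstream of the annotated starts of ASN1, GDH2 and GLN1;4 are shown because ASN1 and GDH2 carried the late rise of Col-0 and GLN1;4 was the member furthest above Col-0 in the overexpressors at 44 DAS, as given further on. Capitals mark matches on either strand to the G-box CACGTG, to the element ACTCAT, which bZIP factors are known to bind in proline dehydrogenase promoters, and to GAGAC, the core of the sulfur-responsive element, which reads GTCTC on the other strand. None of these motifs overlaps another in the sequences shown.
ASN1, chr3:17441432-17441731, minus strand: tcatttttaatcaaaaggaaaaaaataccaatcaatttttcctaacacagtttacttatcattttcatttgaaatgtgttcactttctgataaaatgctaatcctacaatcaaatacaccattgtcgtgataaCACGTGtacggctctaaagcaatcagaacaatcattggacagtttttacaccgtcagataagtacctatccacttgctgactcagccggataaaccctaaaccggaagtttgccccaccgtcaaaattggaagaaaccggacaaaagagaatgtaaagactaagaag
GDH2, chr5:2355459-2355758, plus strand: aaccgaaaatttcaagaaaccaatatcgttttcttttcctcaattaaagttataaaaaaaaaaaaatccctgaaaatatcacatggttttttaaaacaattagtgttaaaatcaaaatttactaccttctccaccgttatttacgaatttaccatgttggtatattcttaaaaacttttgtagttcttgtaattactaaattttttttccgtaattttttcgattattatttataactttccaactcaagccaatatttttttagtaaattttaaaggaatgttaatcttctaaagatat
GLN1;4, chr5:5424750-5425049, minus strand: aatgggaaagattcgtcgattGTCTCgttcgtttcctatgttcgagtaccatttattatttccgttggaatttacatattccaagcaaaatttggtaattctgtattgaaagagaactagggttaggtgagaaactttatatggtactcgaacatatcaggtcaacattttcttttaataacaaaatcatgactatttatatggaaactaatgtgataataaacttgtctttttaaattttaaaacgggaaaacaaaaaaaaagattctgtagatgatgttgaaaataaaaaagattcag
The G-box of ASN1 begins 167 bases before the start and the GAGAC core of GLN1;4 begins 279 bases before it, while the GDH2 window held none of the motifs. Over the 10 members, a G-box stood in 2 windows (ASN1 and GDH1), an ACTCAT in 1 (GLN1;3) and a GAGAC core in 1, against 7.09%, 14.8% and 30.0% of the windows of all 27443 protein-coding genes. In 1000 bases upstream, the length searched in the paper, the motifs stood in 2, 3 and 5 members, against 14.8%, 44.1% and 71.7% of all genes. GDH2 had 1 ACTCAT and 1 GAGAC core in that length. AT3G47341 reaches into the 300-base window of ASN1 and AT5G00355 into that of GDH2. These matches describe the letters of the windows and do not show that a factor binds there.

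Per kilobase of exon, GLN1;1 and GLN1;2 were the most abundant members, with medians over the 39 libraries of 242 and 169.9 CPM per kb. GLN1;1 ranged from 75.3 to 719.9 CPM per kb and GLN1;2 only from 131 to 206. ASN1 had the widest range, 5.77 to 462 CPM per kb, followed in ratio by ASN2 (2.82 to 73.9), GLN1;4 (8.24 to 211) and GDH2 (24.9 to 421). GDH1 (37.3 to 140.3), LHT1 (10.2 to 98.4) and GLN1;3 (24.6 to 71.8) varied less, and GDH3 stayed at 0.391 to 5.13 CPM per kb. All 10 passed the filter on low counts in each fit, so every one was tested in each comparison.

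**Figure D1:**
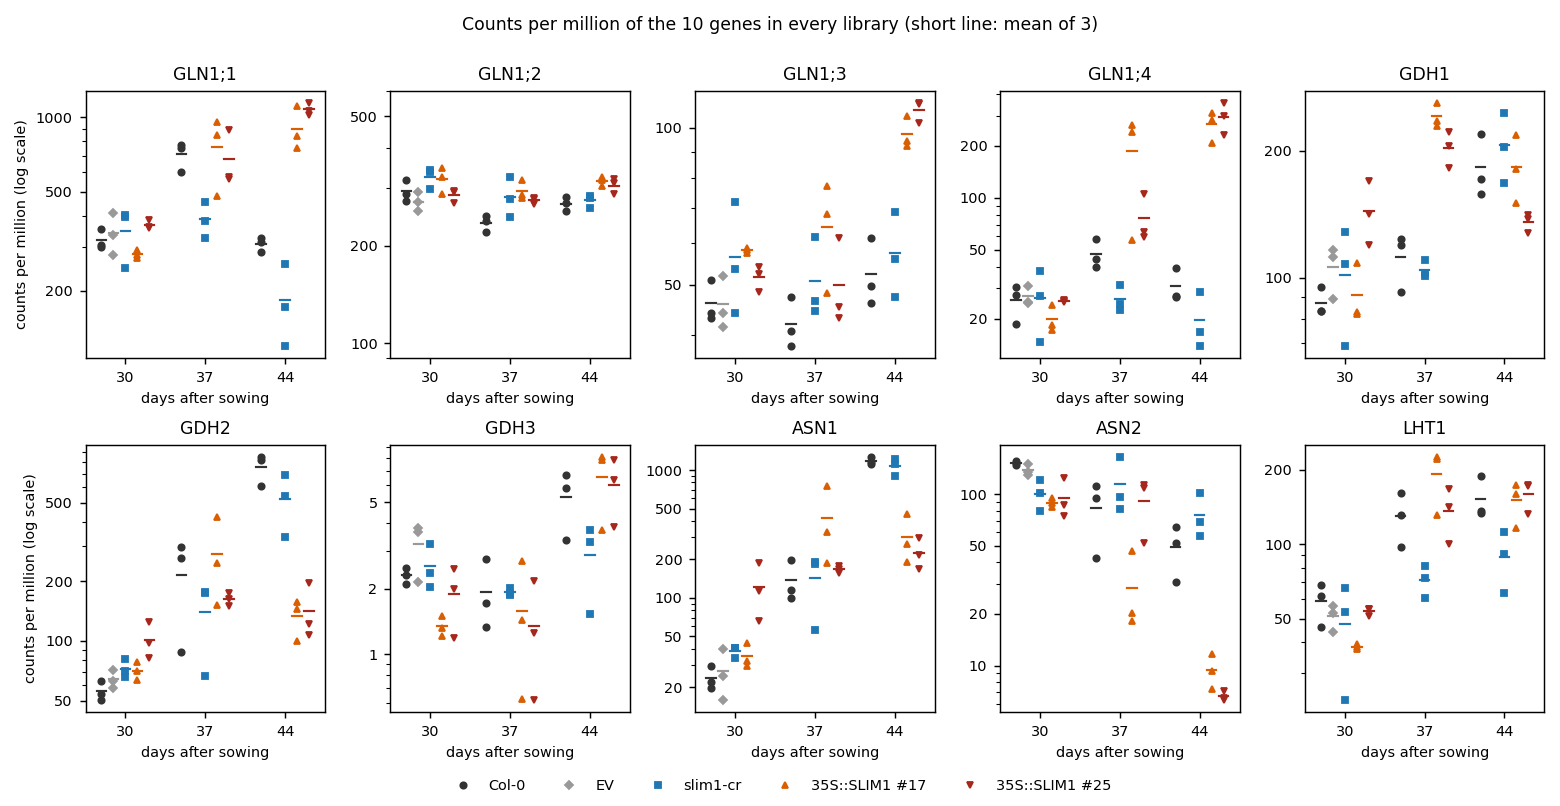
Level in CPM (log axis) of each of the 10 genes against days after sowing, 1 point per library, with a short line at the mean of the 3 libraries of a group and the genotype shown by colour and shape. From 37 to 44 DAS ASN1 and GDH2 climb in Col-0 and slim1-cr, with no called rise in the overexpressors over that week, GLN1;1 and GLN1;4 are high at 44 DAS in the overexpressors alone, and ASN2 falls there to 7.07, 6.47 and 6.28 CPM in #25.

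In Col-0 the rosette went through a sequence of changes. From 30 to 37 DAS the glutamine synthetase gene GLN1;1, the importer LHT1, ASN1 and GDH2 rose, and from 37 to 44 DAS GLN1;1 fell back while ASN1 and GDH2 rose again. ASN1 stood at 19.7, 21.8 and 29.2 CPM at 30 DAS, at 99.1, 199.7 and 115 CPM at 37 DAS and at 1119, 1159 and 1268 CPM at 44 DAS, and the 3 ages did not overlap. Its log2 fold changes were 2.55 ± 0.46 (SE), adjusted p = 0.000141, and then 3.10 ± 0.47 (SE), adjusted p = 3.68e-06. GDH2 took the same course, from 50.3, 53.9 and 62.6 CPM through 88.2, 297 and 264 CPM to 824, 606 and 849 CPM, with the first library at 37 DAS far below the other two. Its log2 fold changes were 1.96 ± 0.37 (SE), adjusted p = 0.000257, and 1.81 ± 0.37 (SE), adjusted p = 0.000192. GLN1;1 was at 299.9, 353 and 305 CPM, then 749.9, 775 and 603 CPM, then 287, 315 and 327 CPM, so that its level at 44 DAS was again that of 30 DAS and only 37 DAS stood apart. In log2 terms the rise was 1.15 ± 0.24 (SE), adjusted p = 0.000588, and the later fall -1.20 ± 0.24 (SE), adjusted p = 0.000144. LHT1 rose from 61.7, 68.4 and 46.1 CPM to 131, 161 and 97.3 CPM and held 134, 188 and 136 CPM at 44 DAS.

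In all, 4 members rose and 1, GLN1;2, fell in Col-0 from 30 to 37 DAS, where 35.8% of all tested genes changed. From 37 to 44 DAS 4 rose (ASN1, GDH2, GDH3 and GDH1) and 1 fell, where 51.2% of all genes changed. The fall of GLN1;2 by 37 DAS was small, -0.32 ± 0.09 (SE), adjusted p = 0.00771, and did not pass with library totals as the only scaling (-0.17, adjusted p = 0.186) or without Col-0 replicate 1 of 30 DAS or replicate 3 of 37 DAS, when it was -0.27 and -0.24. ASN1 is also known as DIN6, a gene that darkness or sugar shortage induces. The other dark-inducible genes, 8 in number (DIN genes and BCAT2), summed to 178 to 275 CPM at 30 DAS, 266 to 576 CPM at 37 DAS and 2639 to 3298 CPM at 44 DAS, most of it from DIN10, moving with ASN1 and GDH2. The other 7 of them summed to 66.1 to 78.1, 112 to 198 and 454 to 631 CPM at these ages. Their part in the change of the members was not tested.

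In slim1-cr the same late rise took place. ASN1 went from 40.2, 34.0 and 40.7 CPM at 30 DAS through 183, 56.4 and 190.1 CPM to 1116, 1214 and 897 CPM, and GDH2 from 81.0, 70.4 and 65.5 CPM through 176, 66.6 and 176 CPM to 539, 688 and 336 CPM. The second library of 37 DAS was low for both genes, at the level of 30 DAS for GDH2. From 37 to 44 DAS 3 members rose (ASN1, GDH2 and GDH1) and GLN1;1 fell, where 41.6% of all genes changed. From 30 to 37 DAS ASN1 alone passed, 1.90 ± 0.45 (SE), adjusted p = 0.00562, where 13.6% of all genes changed, and it did not pass with only those 2 groups in the fit (1.90, adjusted p = 0.11). DESeq2 called 2 members over this interval and 16.6% of all genes. GLN1;1 showed no 37 DAS peak in slim1-cr, at 398, 403 and 247 CPM at 30 DAS and 382, 455 and 327 CPM at 37 DAS (0.15 ± 0.24 (SE), adjusted p = 0.715).

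The overexpressors parted from this course. In #17 and #25 GLN1;1 and GLN1;4 rose by 37 DAS and stayed up or rose further, whereas neither ASN1 nor GDH2 was called higher from 37 to 44 DAS. In #17 6 members rose and 1 fell from 30 to 37 DAS, where 60.4% of all genes changed, and ASN1 and GLN1;4 moved most (3.58 ± 0.48 and 3.24 ± 0.40 on the log2 scale, SE). In #25 4 rose and none fell, against 32.9% of all genes. From 37 to 44 DAS line #17 had 2 that rose and 2 that fell, against 46.9%, and 4 rose and 2 fell in #25, against 65.8% of all genes. GLN1;3 and GDH3 rose and ASN2 fell in both lines over that week. The largest of these was the fall of ASN2 in #25, -3.78 ± 0.39 (SE), adjusted p = 3.29e-09. In #17 the rise of GLN1;3 (0.59) became 0.42, adjusted p = 0.0702, without replicate 3 of 37 DAS, and the fall of GDH2 (-1.03) became -0.58, adjusted p = 0.237, without the same library. In #25 the rise of GLN1;1 by 37 DAS was not called without replicate 2 of that age (0.63, adjusted p = 0.0674), and its further rise (0.67) was not called without replicate 1 or replicate 3 of 37 DAS. GDH1 in #25 rose by 37 DAS (0.50 ± 0.18 (SE), adjusted p = 0.035), a call lost without 4 of the 6 libraries, and then fell (-0.58 ± 0.18 (SE), adjusted p = 0.00617), which became -0.45, adjusted p = 0.0609, without replicate 2 of 44 DAS.

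Against Col-0 of the same age, the clearest differences stood at 44 DAS and were alike in both overexpressors. GLN1;4, a minor cytosolic glutamine synthetase gene in Col-0, was 8.73-fold higher in #17 and 9.76-fold higher in #25, GLN1;1 and GLN1;3 were also higher, and ASN1, ASN2 and GDH2 were lower. In each line 3 members were higher and 3 lower, where 40.4% of all tested genes differed from Col-0 in #17 and 46.1% in #25. All 12 of these calls were kept under each alternative run. The lines share their Col-0 libraries, so the likeness of their differences is in part that of the shared control.

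Among the glutamine synthetase genes, GLN1;4 stood at 26.6, 26.9 and 39.4 CPM in Col-0 at 44 DAS, against 209, 311 and 284 CPM in #17 and 232, 298 and 356 CPM in #25. The log2 fold changes were 3.13 ± 0.29 (SE), adjusted p = 4.59e-05, and 3.29 ± 0.30 (SE), adjusted p = 2.61e-05. GLN1;1 was at 749.6, 1109 and 839.9 CPM in #17 and 1061, 1022 and 1143 CPM in #25, above every Col-0 library of that age and above the 37 DAS peak of Col-0 in 5 of the 6 libraries. Its log2 fold changes were 1.55 ± 0.24 (SE), adjusted p = 0.000709, and 1.83 ± 0.24 (SE), adjusted p = 0.000217. GLN1;3 rose from 49.6, 46.1 and 61.5 CPM in Col-0 to 92.2, 105 and 94.3 CPM in #17 and 112, 111 and 102 CPM in #25, which is 0.90 ± 0.15 (SE), adjusted p = 0.000984, and 1.08 ± 0.15 (SE), adjusted p = 0.000281 on the log2 scale. GLN1;2 was not called by edgeR, at 255, 269.9 and 282 CPM in Col-0 and 325, 317 and 305 CPM and 311, 287 and 319.7 CPM in the lines, with adjusted p = 0.0665 and 0.0848. Each library of both lines nevertheless lay above those of Col-0. DESeq2 called 7 members in each line, beside 9187 and 10216 of the 20499 genes tested. 

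The balance among these 4 genes shifted with these changes. Per kilobase, GLN1;4 made up 4.49% ± 0.763 (SD, n = 3) of the summed level of the 4 genes in Col-0 at 44 DAS, 16.3% ± 1.67 in #17 and 15.8% ± 2.51 in #25. GLN1;2 fell as a share from 39.3% ± 0.804 to 19.5% ± 3.11 and 16.5% ± 0.778, where the other genes rose and its own difference did not pass the test. In slim1-cr GLN1;2 took 50.4% ± 7.24 and GLN1;1 34.5% ± 9.52, with GLN1;2 above GLN1;1 in 2 of the 3 libraries, where GLN1;1 was above it in every Col-0 library of that age. The sum of the 4 genes was 406 ± 28.3 CPM per kb in Col-0 and 327 ± 34.6 for slim1-cr, and it reached 975 ± 149 in #17 and 1104 ± 71.7 in #25. These shares and sums are descriptions of the groups and were not tested.

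**Figure D2:**
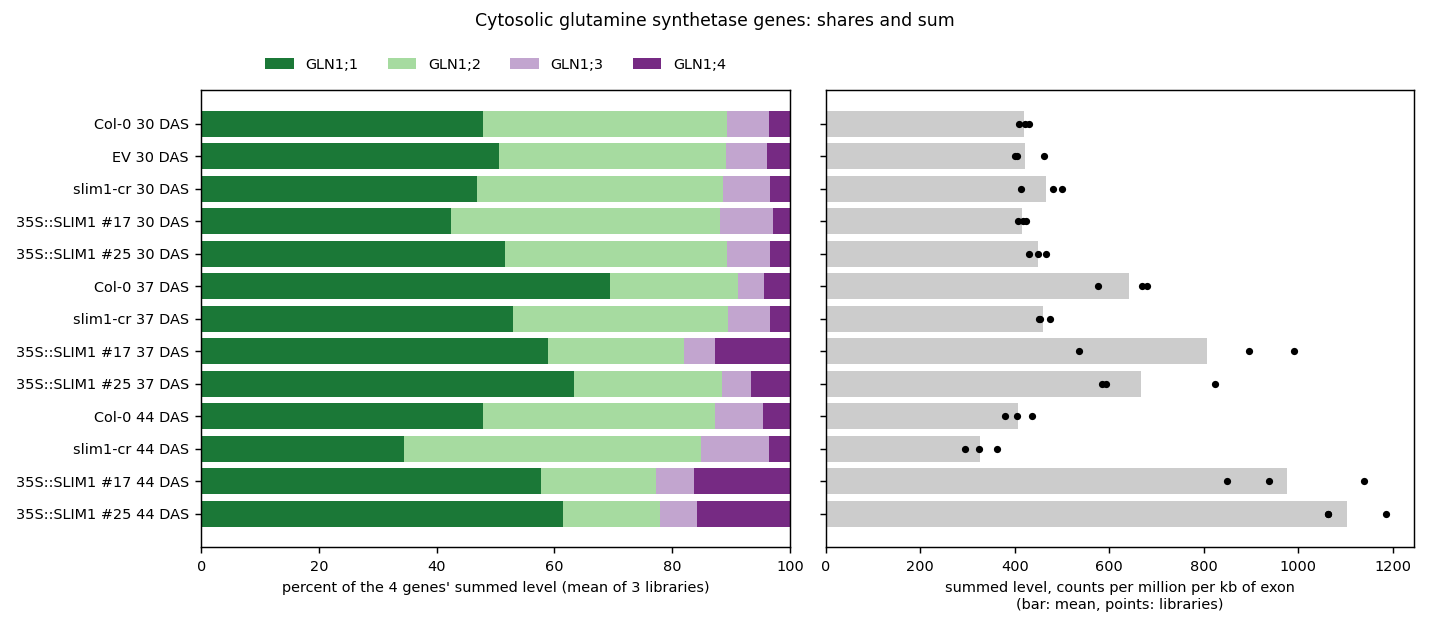
Left, the mean percent that each of the 4 cytosolic glutamine synthetase genes takes of their summed level per kb of exon in the 13 groups. Right, that sum in CPM per kb of exon, with bars at the mean of 3 libraries and points for the libraries. The GLN1;4 share is 16.3% ± 1.67 and 15.8% ± 2.51 in the 2 overexpressors at 44 DAS and at most 4.49% on average in any Col-0, EV or slim1-cr group.

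Of the asparagine synthetase genes, ASN1 reached 452, 264 and 190.2 CPM in #17 and 218, 293 and 167 CPM in #25 at 44 DAS, all below the 1119, 1159 and 1268 CPM of Col-0. The log2 fold changes were -1.96 ± 0.30 (SE), adjusted p = 0.000715, and -2.35 ± 0.31 (SE), adjusted p = 0.000207. ASN2, which in Arabidopsis leaves is known to be expressed in the light where ASN1 is expressed in the dark, was at 64.5, 51.7 and 30.8 CPM in Col-0, 9.25, 7.29 and 11.6 CPM in #17 and 7.07, 6.47 and 6.28 CPM in #25. Its log2 fold changes were -2.37 ± 0.29 (SE), adjusted p = 0.00019, and -2.86 ± 0.30 (SE), adjusted p = 5.63e-05. Both genes were thus low in the overexpressors at this age, and the ratio of ASN1 to ASN2 per kilobase was not set apart. The ratio was 0.105, 0.114 and 0.161 in the Col-0 libraries at 30 DAS and 14.1, 18.2 and 33.3 at 44 DAS, and 39.6, 29.3 and 13.2 in #17 and 25.0, 36.8 and 21.6 in #25 at 44 DAS. At 37 DAS it was 7.53, 14.5 and 13.1 in #17, above every Col-0 library of that age (0.719, 1.71 and 2.22), while #25 (1.32, 2.62 and 1.14) overlapped Col-0.

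Of the glutamate dehydrogenase genes, which encode subunits that can join in one hexamer, GDH2 was lower in the overexpressors at 44 DAS, at 158, 99.7 and 144 CPM in #17 and 121, 197 and 107 CPM in #25 against 824, 606 and 849 CPM in Col-0. The log2 fold changes were -2.49 ± 0.31 (SE), adjusted p = 0.000213, and -2.39 ± 0.31 (SE), adjusted p = 0.000203. GDH1 was called in neither line, at 219, 158 and 171 CPM in Col-0, 218, 150.4 and 181 CPM in #17 and 138, 127 and 141 CPM in #25, with adjusted p = 0.945 and 0.0851. Each library of #25 nevertheless lay below those of Col-0, though by less than for GDH2. The ratio of GDH2 to GDH1 per kilobase was therefore 3.46, 3.52 and 4.54 in Col-0 at 44 DAS and 2.01, 3.09 and 1.84 in slim1-cr, against 0.662, 0.608 and 0.732 in #17 and 0.808, 1.42 and 0.696 in #25. At 30 DAS, before the rise of GDH2, all 15 libraries lay between 0.494 and 0.878. GDH3 was at 6.71, 3.37 and 5.85 CPM in Col-0 at 44 DAS and did not differ beyond its spread in either line (adjusted p = 0.56 and 0.685). LHT1, which takes up neutral and acidic amino acids into mesophyll and root cells, was at 134, 188 and 136 CPM in Col-0, 160.1, 174 and 116 CPM in #17 and 172, 133 and 173 CPM in #25, with adjusted p = 0.967 and 0.757.

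**Figure D3:**
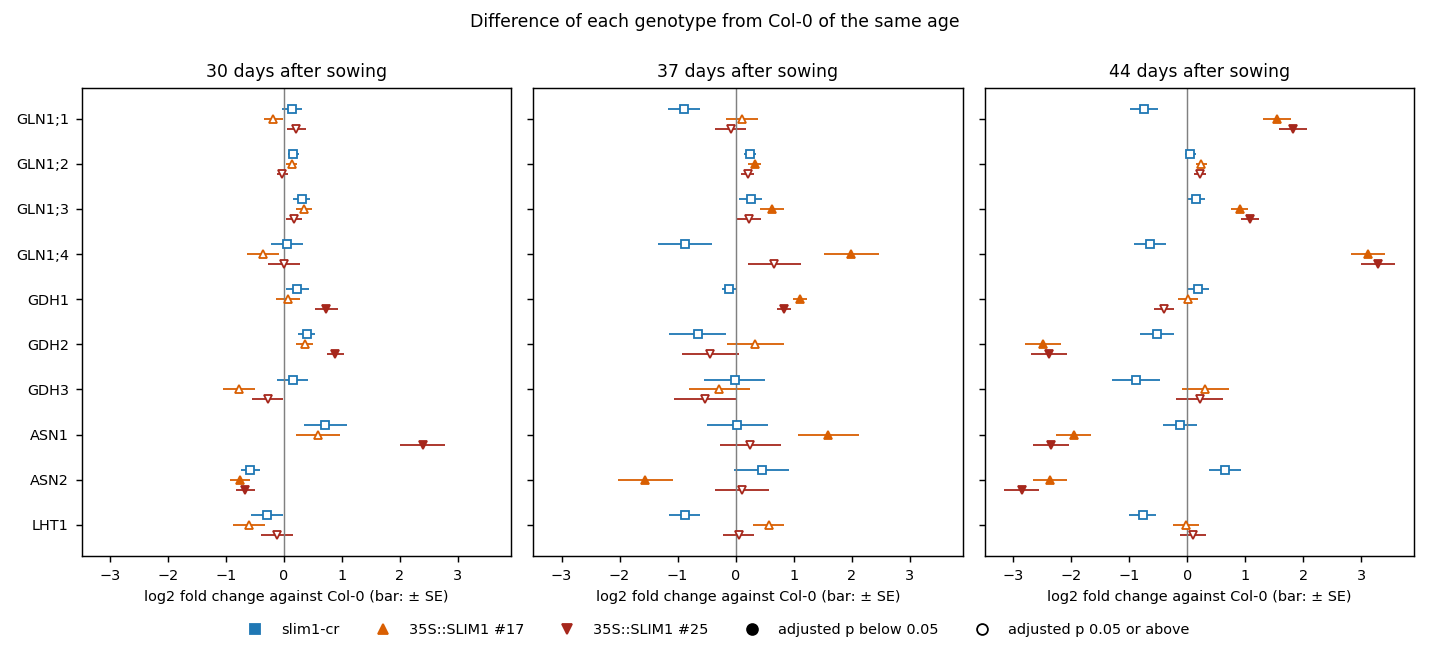
Log2 fold change of each gene against Col-0 of the same age, with bars of 1 SE, for slim1-cr, #17 and #25 at 30, 37 and 44 days after sowing. Filled symbols passed an adjusted p below 0.05. At 44 days GLN1;1, GLN1;3 and GLN1;4 lie to the right and GDH2, ASN1 and ASN2 to the left in both overexpressors, and no symbol of slim1-cr is filled at any age.

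A week earlier the lines differed from Col-0 in another way. At 37 DAS GDH1 was higher in both, at 228, 235 and 259.7 CPM in #17 and 221, 182 and 206 CPM in #25 against 124, 119.9 and 92.4 CPM in Col-0, with log2 fold changes of 1.11 ± 0.12 (SE), adjusted p = 0.00016, and 0.84 ± 0.12 (SE), adjusted p = 0.000827. In #17 5 members were higher and 1 lower, where 36.8% of all genes differed, and in #25 GDH1 alone passed, where 22.3% did. GLN1;4 stood at 266, 239.9 and 56.9 CPM in #17, with replicate 3 near the Col-0 libraries (40.0, 44.1 and 58.1 CPM). Its log2 fold change was 2.00 ± 0.48 (SE), adjusted p = 0.0091. The same library was the highest of the group for ASN1 (189, 326 and 751 CPM, against 99.1, 199.7 and 115 CPM in Col-0) and the lowest for GLN1;1 and LHT1. It stood apart in the mesophyll markers too, with a sum of 35113 CPM against 22130.2 and 20222 CPM in the other libraries of #17 and 30413 to 32263 CPM in Col-0, and the part of this in the members' values was not tested. The ASN1 difference of 1.60 ± 0.53 (SE), adjusted p = 0.0379, became 0.91, adjusted p = 0.158 without it. ASN2 was lower in #17, at 20.3, 18.2 and 46.4 CPM against 112, 94.9 and 42.2 CPM, -1.56 ± 0.48 (SE), adjusted p = 0.0278. The calls of GLN1;2, GLN1;3, ASN1 and ASN2 in #17 did not hold with only #17 and Col-0 in the fit, nor when any of 4 or 5 of the 6 libraries compared was left out, whereas those of GLN1;4 and GDH1 held under each alternative run.

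At 30 DAS 1 member was called in #17 and 4 in #25, beside 6.95% and 6.38% of all genes. ASN2 was already lower in both overexpressors, at 88.8, 95.1 and 83.8 CPM in #17 and 86.4, 74.6 and 123 CPM in #25 against 153, 155 and 147 CPM in Col-0 (-0.76 ± 0.17 (SE), adjusted p = 0.0181, and -0.67 ± 0.17 (SE), adjusted p = 0.0322). These calls were lost with all 13 groups in 1 fit (adjusted p = 0.221 and 0.291), without any one of 4 (#17) or 5 (#25) of the 6 libraries compared and, for #25, against EV in place of Col-0. ASN2 was the single member called in #17, where 6.95% of all genes differed. In #25 ASN1, GDH2 and GDH1 were higher and ASN2 lower, where 6.38% of all genes differed. ASN1 stood at 113, 188 and 66.2 CPM in #25, wide apart among themselves but all above the 19.7, 21.8 and 29.2 CPM of Col-0 (2.39 ± 0.39 (SE), adjusted p = 0.00649). GDH2 was at 97.4, 125 and 82.4 CPM against 50.3, 53.9 and 62.6 CPM (0.88 ± 0.15 (SE), adjusted p = 0.00586), a call that was lost with all 13 groups in 1 fit (adjusted p = 0.186). GDH1 at 0.73 and adjusted p = 0.0485 was just past the threshold and was lost without each of 5 of the 6 libraries. The dark-inducible genes summed to 211 to 347 CPM in #25, 99.5 to 151 CPM in #17 and 178 to 275 CPM in Col-0 at this age. Without DIN10 the other 7 summed to 92.4 to 180 CPM in #25, 65.6 to 83.9 CPM in #17 and 66.1 to 78.1 CPM in Col-0. Only #25 thus lay apart from Col-0 in this smaller sum. EV, the empty vector line, gave no member past the threshold by edgeR or DESeq2, which called 0% and 0.404% of all genes. None of the members had an unadjusted p under 0.05 there, against 8.49% of all genes.

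In slim1-cr none of the members passed the edgeR test at any age with the groups of 1 age in the fit. Other edgeR settings called some, with 2 at 37 DAS and 2 at 44 DAS when all 13 groups shared a fit, and 4 at 44 DAS without slim1-cr replicate 2. At 30, 37 and 44 DAS 4.75%, 5.54% and 10.2% of all genes differed from Col-0 by that test. DESeq2 called 1, 2 and 2 of the 10 members, beside 9.6%, 14% and 24.1% of all genes, and 3, 3 and 4 members had an unadjusted p under 0.05, beside 22.9%, 25.7% and 36.1%. These counts of members are near the shares over all genes. LHT1 at 44 DAS came nearest to the threshold, followed by ASN2 at 30 DAS and GLN1;1 at 44 DAS. GLN1;1 was at 382, 455 and 327 CPM at 37 DAS and 172, 257 and 119.6 CPM at 44 DAS, below every Col-0 library of its age (-0.89 ± 0.27 (SE), adjusted p = 0.0793, and -0.74 ± 0.24 (SE), adjusted p = 0.0621). LHT1 was at 72.7, 81.5 and 60.4 CPM and 90.9, 111 and 63.4 CPM, again with no overlap with Col-0 (-0.88 ± 0.27 (SE), adjusted p = 0.0782, and -0.77 ± 0.23 (SE), adjusted p = 0.0529). ASN2 lay below Col-0 at 30 DAS, at 120.0, 102 and 79.2 CPM, with -0.58 ± 0.17 (SE), adjusted p = 0.0591. ASN1 at 44 DAS was at 1116, 1214 and 897 CPM in slim1-cr, with 2 libraries below the lowest of Col-0 and the third among them, -0.12 ± 0.29 (SE), adjusted p = 0.788.

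Between the 2 overexpressors no member was called at 44 DAS by edgeR or DESeq2, which called 0.00976% and 0.585% of all genes. GDH1 alone had an unadjusted p under 0.05, as did 7.45% of all genes. The difference of #25 from #17 was 0.16 ± 0.27 (SE) for GLN1;4, 0.11 ± 0.30 for GDH2, -0.39 ± 0.29 for ASN1 and -0.48 ± 0.29 for ASN2 on the log2 scale, and a p that misses the threshold does not show that they were equal. At 30 DAS ASN1 was higher in #25 (113, 188 and 66.2 CPM) than in #17 (31.8, 29.5 and 44.1 CPM), 1.81 ± 0.38 (SE), adjusted p = 0.0415, the only member called where 1.69% of all genes were. DESeq2 called 3 members and 5.76% of all genes there. It was lost without 4 of the 6 libraries compared, at 1.34 without the highest of them. At 37 DAS no member passed by edgeR with the groups of 1 age in the fit, which called 8.25% of all genes, but 3 did with all 13 groups in 1 fit and 4 without replicate 3 of #17. DESeq2 called 3 members and 17% of all genes, and 4 members and 29.3% of all genes had an unadjusted p under 0.05. ASN2 came nearest, with #25 above #17 in every library (1.66 ± 0.48 (SE), adjusted p = 0.057).

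Whether the difference from Col-0 itself changed from 30 to 44 DAS was tested by an interaction term. The members separated into those whose difference shifted upwards (GLN1;1 and GLN1;4) and those whose difference shifted downwards (GDH2, ASN1 and ASN2) in both overexpressors. In #25 ASN1, GDH2 and GDH1 had been called higher than Col-0 at 30 DAS, so their shifts there start from above Col-0. ASN1 in #25 averaged 122 CPM against 23.6 CPM in Col-0 at 30 DAS, and 226 against 1182 CPM at 44 DAS. The difference of ASN1 and of GDH2 in #25 thus changed sign. In #17 2 members passed upwards and 3 downwards, where 26.8% of all genes passed, and in #25 3 and 4, where 30.2% did, GLN1;3 and GDH1 being the added ones. For ASN1 the log2 difference shifted by -2.55 ± 0.62 in line #17 and by -4.76 ± 0.64 in line #25 (adjusted p = 0.00328 and 4.51e-06). GDH2 shifted by -2.86 ± 0.52 and -3.29 ± 0.52, and GLN1;4 by 3.48 ± 0.53 and 3.27 ± 0.53. ASN2 in #17 became -1.37, adjusted p = 0.0565, without Col-0 replicate 1 of 44 DAS. In slim1-cr no member passed by edgeR or DESeq2 with every library in the fit and no replicate block, where they called 6.81% and 11.2% of all genes, and 2 members had an unadjusted p under 0.05, beside 27.5% of all genes. Without replicate 3 of slim1-cr at 30 DAS or replicate 2 at 44 DAS 1 member passed.

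The other genes around these enzymes, in lists chosen by function, moved as follows at 44 DAS against Col-0, read beside the 40.4% and 46.1% of all genes called. The partner enzymes include GLN1;5 and ASN3, further genes of the glutamine and asparagine synthetase families that are not among the members. Of the 5 tested partner enzymes, 1 was higher and 2 lower in each line. The lower ones were GLN2, the plastid glutamine synthetase (-1.34 ± 0.16 in #17 and -1.43 ± 0.16 in #25, log2, SE), and GLU1, the ferredoxin-dependent glutamate synthase of leaves (-1.17 ± 0.15 and -1.28 ± 0.15). GLN2 thus went down where the cytosolic GLN1;1, GLN1;3 and GLN1;4 went up. Of 14 amino acid transporters 4 were higher in #17 and 7 in #25 and none was lower, with AAP5 (1.06 ± 0.14 and 1.14 ± 0.14) and the exporter UMAMIT29 (0.90 ± 0.22 and 1.58 ± 0.22) changing most. Of 11 genes of asparagine and glutamine breakdown, proline oxidation and the GABA shunt, line #17 had 3 higher and 2 lower, and line #25 had 5 higher and 2 lower. Here GAT1_2.1, a glutamine amidotransferase gene, was lowest (-3.72 ± 0.50 and -2.80 ± 0.47), and the proline dehydrogenase PRODH1 was lower too (-1.28 ± 0.23 and -1.13 ± 0.23). GAD1, a glutamate decarboxylase gene, was higher (1.05 ± 0.31 and 1.53 ± 0.31).

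Among 10 aminotransferases 2 were higher and 3 lower in #17, and in #25 the numbers were 4 and 3. GGT2 changed most in #17 and GGT1 in #25. AGT1, the peroxisomal alanine-glyoxylate aminotransferase of photorespiration, came next in each line and was lower in both (-0.91 ± 0.15 and -0.90 ± 0.15). Of 5 ammonium transporters #17 had 2 higher and 1 lower and #25 had 1 higher and 2 lower. Of 9 bZIP factors of the C and S1 groups, which are known to act on ASN1 under low energy, 3 stood above Col-0 and 5 below it in #17, with 3 and 4 in #25. BZIP63 was lower (-2.12 ± 0.14 and -1.89 ± 0.13) and BZIP44 higher (1.39 ± 0.22 and 1.73 ± 0.22). Of the 8 dark-inducible genes 2 were higher and 6 lower in #17, with 2 and 4 in #25. DIN11, an oxoglutarate-dependent dioxygenase gene, was lower (-4.18 ± 1.05 and -3.10 ± 0.99), DIN10 was lower (-3.40 ± 0.35 and -3.03 ± 0.34), and DIN2, a beta-glucosidase gene, was higher (2.56 ± 0.75 and 3.92 ± 0.79).

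The summed level of the 8 dark-inducible genes at 44 DAS was 2639 to 3298 CPM in Col-0 and 1843 to 2756 CPM in slim1-cr, against 506 to 857 CPM in #17 and 655 to 1015 CPM in #25, which is the order of ASN1 and GDH2 between the overexpressors and the rest. Over the 39 libraries the Pearson correlation of this sum with ASN1 was 0.909 and with GDH2 0.877 on a log2 scale, against 0.802 for GDH1, 0.723 for LHT1, 0.294 for GLN1;4 and -0.394 for ASN2. The points share ages and genotypes, so these values are descriptions. At 37 DAS the sum was 1024 to 1677 CPM in #17, 562 to 846 CPM in #25 and 266 to 576 CPM in Col-0. Without DIN10 it was 285 to 521 CPM in #17, 230 to 266 CPM in #25 and 112 to 198 CPM in Col-0. ASN1 was higher than in Col-0 in #17 at that age, whereas in #25 it was not called (0.25 ± 0.52 (SE), adjusted p = 0.781), and GDH2 was called in neither line (0.34 ± 0.49 (SE), adjusted p = 0.617, and -0.44 ± 0.49 (SE), adjusted p = 0.589).

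This sum is for the most part 1 gene, DIN10, which encodes a raffinose synthase family protein and made up 77.2% to 86.2% of it in Col-0 at 44 DAS and 26.7% to 42.3% in the overexpressors. Without DIN10, an alternative added after these values were seen, the sum of the other 7 genes at 44 DAS was 454 to 631 CPM in Col-0, 383 to 683 CPM in slim1-cr, 371 to 505 CPM in #17 and 397 to 641 CPM in #25, so that the genotypes overlapped in this sum. Gene by gene the picture was not that of DIN10 alone. Of the 8 genes, 6 were lower than in Col-0 in #17 and 4 in #25, with 2 higher in each line. DIN2, which was among the higher ones, reached 219 CPM in #25 at that age and so weighs in the sum. The correlation of the sum without DIN10 over the 39 libraries was 0.921 with ASN1, 0.797 with GDH2, 0.823 with GDH1, 0.772 with LHT1, 0.532 with GLN1;4 and -0.668 with ASN2.

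**Figure D4:**
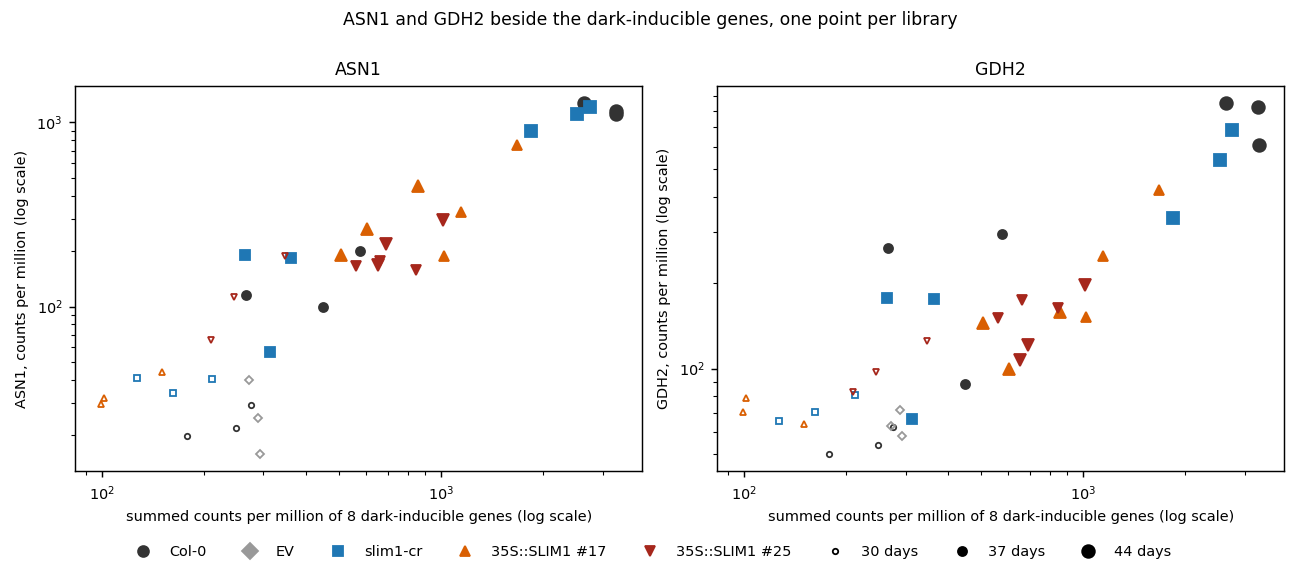
Level of ASN1 (left) and GDH2 (right) in CPM against the summed level of 8 dark-inducible genes, of which DIN10 is the most abundant, both on log axes, 1 point per library, with genotype by colour and shape and age by symbol size. The Col-0 and slim1-cr libraries of 44 days sit at the top right and the overexpressor libraries of 44 days in the middle, where the 37-day libraries of #17 and #25 also lie.

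Over the 13 group means of log2(CPM + 0.5), the members fell into sets that moved together. ASN1 and GDH2 were the closest pair (Pearson r = 0.949), followed by GLN1;1 and GLN1;4 (0.911), while ASN2 went against GLN1;3 (-0.925) and GLN1;4 (-0.900). In the whole table the genes most like ASN1 were SEN1, which is DIN1 of the dark-inducible list (0.972), and ATZW10 (0.964). GDH2 was most like FES1 (0.956) and NodGS (0.953), GLN1;1 like CNGC3 (0.973) and AE7 (0.957), and GLN1;4 like SUFE2 (0.977) and CAT5 (0.972), a cationic amino acid transporter gene. GLN1;3 was most like OMTF3 (0.976) and SNRK2.10 (0.969), GLN1;2 like PRF3 (0.898) and CID9 (0.867), GDH1 like MEE14 (0.966) and TLP6 (0.963), and GDH3 like LFR (0.905) and BIM2 (0.897). ASN2 was most like PPL1 (0.989) and FKBP13 (0.987), which encode proteins of the chloroplast thylakoid, and LHT1 like the ethylene receptor gene EIN4 (0.992) and SERK4 (0.977). Each is a likeness over 13 groups that share ages and genotypes, and says nothing of a shared function.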

How the data were processed

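RNA was taken from rosettes and sequenced as strand-specific paired-end libraries of polyadenylated RNA. The authors aligned cleaned reads with CLC Genomics to TAIR10, counted them over Araport11 genes and deposited the counts, as whole numbers with 1 column per library, with no replicates pooled. A second deposited table holds the same counts divided by DESeq2 size factors and was not used here. Whether the counting used strand is not given in the sources used here.

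The members and gene lists were chosen with earlier results of these data known. From the counts, edgeR 4.0.16 (R 4.3.3, limma 3.58.1) was used with its default filter on low counts, TMM scaling and the robust quasi-likelihood test. The groups of 1 age shared a fit for comparisons with Col-0 and between the overexpressors (20274 to 20499 genes), and all 13 groups shared a fit for ages and interactions (21040 genes). Benjamini-Hochberg adjustment covered every gene tested and calls needed an adjusted p under 0.05. The SE is the log2 fold change over the root of its F. CPM of a library uses its total count times its TMM factor. The test was checked on simulated counts. The alternatives were DESeq2 1.42.0, RLE factors, total counts alone, no filter, a filter of 10 CPM in 3 libraries, other sets of groups in the fit, EV as control, a replicate block and leaving out each library.

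All 10 members are named. From each list the text gives counts and names at most the 2 genes with the largest change among those called. For likeness, the 2 genes with the highest correlation among those of at least 1 CPM with a symbol are named. Promoter windows, gene models and lengths come from the RefSeq copy of TAIR10.1, read by gene ID.

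Totals of 38.4 to 46.2 M counts mean that the spread between libraries, not depth, limits the members other than GDH3. For GDH3 the libraries spread widely too, and depth adds to this, with counts as low as 27 in #25 replicate 3 at 37 DAS. Within groups, counts of library pairs differed by a chi-square of 8.55 to 162 per degree of freedom over 39 pairs, so none was a repeat of another.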

Additional observations from a re-analysis of the deposited data

Results flagged for a closer look

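For 7 of the 10 genes the difference from Col-0 changed between 30 and 44 DAS by a test of the change itself (interaction term, edgeR, adjusted over all genes tested) in at least 1 overexpressor, as it did for 36.7% of all genes tested. In #17 (26.8% of all genes) the change on the log2 scale was 1.73 ± 0.34 (SE), adjusted p = 0.00046 for GLN1;1, 3.48 ± 0.53 (SE), adjusted p = 4.03e-05 for GLN1;4, -2.86 ± 0.52 (SE), adjusted p = 0.000242 for GDH2, -2.55 ± 0.62 (SE), adjusted p = 0.00328 for ASN1 and -1.62 ± 0.50 (SE), adjusted p = 0.0162 for ASN2. In #25 (30.2% of all genes) it was 1.60 ± 0.34 (SE), adjusted p = 0.000697 for GLN1;1, 0.88 ± 0.24 (SE), adjusted p = 0.00654 for GLN1;3, 3.27 ± 0.53 (SE), adjusted p = 4.58e-05 for GLN1;4 and -1.15 ± 0.26 (SE), adjusted p = 0.00122 for GDH1. It was -3.29 ± 0.52 (SE), adjusted p = 3.39e-05 for GDH2, -4.76 ± 0.64 (SE), adjusted p = 4.51e-06 for ASN1 and -2.21 ± 0.50 (SE), adjusted p = 0.0014 for ASN2 in the same line. Both lines were set against the same Col-0 libraries. In #25 the shifts of ASN1, GDH2 and GDH1 start from levels called higher than Col-0 at 30 DAS.

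ASN1 also differed between the overexpressors at 30 DAS, where #25 was above #17 by 1.81 ± 0.38 (SE), adjusted p = 0.0415, with no overlap of the 3 libraries of each. This call was lost without 4 of the 6 libraries compared, with no filter on low counts and with the replicate block. The groups of 3 libraries are too small for a test of single libraries that stand apart.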

How the results depend on the processing

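No member reversed a called direction under any alternative. Of 73 called values, 55 were kept under every alternative run, 16 were lost when some library was left out and 12 under another setting, and all 12 calls of the overexpressors against Col-0 at 44 DAS were kept. Uncalled values changed sign in 81 of 1620 fits with a library left out and in 10 of 240 with total counts alone.

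The number of members called moved by over 1.5 times in these cases. For slim1-cr against Col-0 it was 0 at each age, and DESeq2 called 1 at 30 DAS, 2 at 37 DAS and 2 at 44 DAS, all 13 groups in 1 fit gave 2 at 37 and 2 at 44 DAS, and the filter of 10 CPM gave 1 at 44 DAS. For #17 at 30 DAS (1) it was 4 with only the groups compared, 0 with all 13 groups and 2 against EV. For #25 at 30 DAS (4) it was 2 with all 13 groups and 2 against EV. For #17 at 37 DAS (6) it was 2 with only the groups compared. For #25 against #17 at 30 DAS (1) it was 3 by DESeq2, 0 with no filter and 3 with only the groups compared, and at 37 DAS (0) it was 3 by DESeq2, 1 with the filter of 10 CPM and 3 with all 13 groups. For slim1-cr from 30 to 37 DAS (1) it was 2 by DESeq2 and 0 with only the groups compared.

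Leaving out 1 library gave 0 to 1 members for slim1-cr and for #17 at 30 DAS, 2 to 4 for #25 at 30 DAS, 2 to 6 for #17 at 37 DAS and 0 to 4 for slim1-cr at 44 DAS. It gave 0 to 2 and 0 to 4 for #25 against #17 at 30 and 37 DAS, 1 to 2 for slim1-cr from 30 to 37 DAS, 2 to 5 for #17 from 37 to 44 DAS and 0 to 1 for the slim1-cr interaction. The cause of these moves was not tested, beyond the smaller number of samples.

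Most same-numbered libraries did not deviate together (correlations from -0.548 to 0.621, 14 of 66 above 0.1). Nothing in the labels says that the numbers mark a shared batch. With 3 libraries in a group these correlations cannot show whether some of the libraries shared one. With the replicate block the count was 2 for #25 at 30 DAS, 2 for slim1-cr at 37 DAS, 2 for #17 at 37 DAS, 0 for #25 against #17 at 30 DAS and 1 for the slim1-cr interaction.

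With total counts alone the median log2 change of all genes moved from that under TMM scaling by 0.173 for #17 and 0.192 for #25 at 44 DAS, by -0.124 for #25 at 37 DAS, by 0.153 and -0.214 for Col-0 over its 2 intervals, by -0.151 for slim1-cr and 0.153 for #25 from 37 to 44 DAS, and by 0.174 and 0.172 for the interactions of #17 and #25. GDH3, at 0.615 to 8.08 CPM, is the member that counting noise limits most.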

Other observations

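The genes around the members also changed with age in Col-0, where the calls between 37 and 44 DAS took in 51.2% of all genes tested. Of the 8 dark-inducible genes 7 rose and none fell, with DIN10 (3.21 ± 0.38 on the log2 scale, SE) and DIN1 (2.66 ± 0.43) moving most. Of 9 bZIP factors 5 rose and 2 fell, led by BZIP1 (2.71 ± 0.23) and BZIP63 (2.08 ± 0.22). The proline dehydrogenase PRODH1 rose (2.59 ± 0.34), as did the phloem amino acid importer AAP2 (1.89 ± 0.30). Of 5 ammonium transporters 3 fell and none rose. In the overexpressors over the same week the dark-inducible genes moved otherwise, with 1 lower and none higher in #17 (46.9% of all genes called) and 4 higher and none lower in #25 (65.8%), and the difference between genotypes in this change was not tested.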
